A study of Mus musculus with 66 samples.

Results

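The anus and the rectum of the same uninjured mice were compared by bulk RNA sequencing, across the line where gut mucosa gives way to stratified epithelium. The 8 samples were chosen as all day 0 sections labelled anal (4 samples) and all day 0 sections labelled rectal (4 samples), 1 of each from mice 1 to 4, out of 66 samples in the series. All were C57Bl/6 mice from the Jackson Laboratory, bought at 6 weeks of age and killed at experimental day 0 with no injury, so neither group had received dextran sulfate sodium (DSS), the chemical that injures the colon in the later mice of the series. The labels give no sex, no age at death and no genotype beyond the strain. Each section had its muscle layer removed before RNA isolation. The libraries were stranded mRNA libraries read as single ends of 75 bp.

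The distal gut ends at a sharp border. On the rectal side a single layer of columnar cells, chiefly colonocytes and goblet cells, absorbs salt and water and secretes mucus. On the anal side a stratified squamous epithelium renews from basal cells that express p63 and the keratins Krt5 and Krt14, and its upper layers build a cornified envelope of cross-linked proteins. Beyond the anal canal lies hairy skin with sebaceous glands, and a ring of striated muscle, the external anal sphincter, surrounds the canal.

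Anal and rectal sections differed at 55.7% of the genes tested. A gene was tested where at least 4 of the 8 samples had 1 TPM or more. Of 13158 genes, 7330 passed the threshold of an adjusted p below 0.05 by limma with mouse as a block, 3205 (24.4%) higher in the anus and 4125 (31.3%) lower. TPM, a length-adjusted relative abundance that sums to the same total in each sample, is the unit throughout, and differences are anus minus rectum on the log2(TPM + 1) scale, which understates the change of genes at a low level. The median difference over all tested genes was -0.15. A difference of 4 or more on this scale was found for 291 genes called higher in the anus (2.21% of those tested) and of -4 or less for 8 called lower (0.0608%). Values of all 4 anal sections lay above all 4 rectal ones for 3205 genes (24.4% of those tested), and below them for 4204 (32.0%). Of the genes called higher in the anus, 710 had no rectal section at 1 TPM, and of those called lower, 101 had no anal section at 1 TPM; such genes passed the filter through 1 section only, which fixes their direction, and their number is given with the lists that hold many. In bulk tissue, fewer cells of a type and less RNA per cell cannot be told apart.

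Anal sections varied more among mice than rectal sections. The median SD between mice was 0.34 on the log2 scale in the anus and 0.15 in the rectum, and 84.3% of tested genes had the larger SD in the anus. Squamous markers (Krt5, Krt14, Krt13, Trp63, Dsg3) summed to 6945 to 10618 TPM in the anus and 10.6 to 80.2 TPM in the rectum, and colonocyte markers (Car1, Slc26a3, Krt20, Vil1, Cdx2) to 399.7 to 1418 TPM and 5413 to 7159.9 TPM, so the markers of each labelled tissue were present in its sections. The anal sections nevertheless held colonic transcripts, most in mouse 4, and the rectal section of mouse 1 held the most squamous transcripts of the rectal sections, while the mid-colon of the same mice summed to 3.67 to 7.20 TPM. Skeletal muscle markers (Acta1, Ckm, Tnnc2, Mylpf) ran from 1492 TPM in the anus of mouse 1 to 14335 TPM in that of mouse 3, although the series' design text says that the muscle layer was discarded. The part of these differences between sections in the results was not tested.

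**Figure D1:**
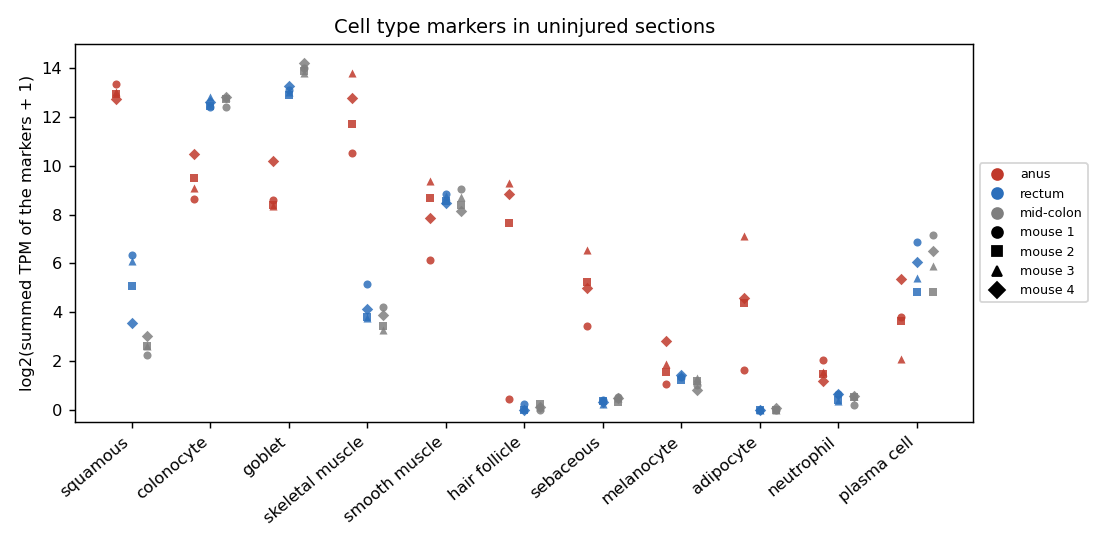
Summed TPM of fixed marker genes, as log2(sum + 1) on the vertical axis, for each cell type on the horizontal axis, with 1 point per section (colour) and mouse (shape) of the 4 uninjured mice. Squamous markers separate anus from rectum in every mouse, and the hair follicle markers of anal mouse 1 lie close to the rectal level (0.364 TPM) while mice 2 to 4 reach 198 to 625 TPM.

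Promoters of the genes with the largest differences in each direction are shown so that the sequences beside their starts can be read with the motif counts. They were the first 3 genes of each direction among genes with a mean of at least 8 TPM in the higher section and no overlap between the groups, leaving out pseudogenes, immunoglobulin segments and provisional gene names: Fam25c, Tnnc2 and Stfa3 for the anus and Zg16, Cyp2c55 and Guca2a for the rectum, and sequences were found for 5 of the 6 in RefSeq (GRCm38.p6). Each runs 5′ to 3′ on the gene's strand, from 250 bases before the annotated start to 50 bases after it, with capitals on matches to the motifs searched. Fam25c lies at chr14:34355344-34355643, minus strand, Tnnc2 at chr2:164779685-164779984, minus strand, Stfa3 at chr16:36455343-36455642, minus strand, Cyp2c55 at chr19:39006769-39007068, plus strand and Guca2a at chr4:119637482-119637781, plus strand, these being the coordinates of the printed windows.
Fam25c: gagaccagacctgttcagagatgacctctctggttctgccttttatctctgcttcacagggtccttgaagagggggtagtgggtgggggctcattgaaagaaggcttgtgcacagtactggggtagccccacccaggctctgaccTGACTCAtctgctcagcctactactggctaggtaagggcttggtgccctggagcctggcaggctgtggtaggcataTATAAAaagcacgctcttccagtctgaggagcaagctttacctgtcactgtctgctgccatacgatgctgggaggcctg
Tnnc2: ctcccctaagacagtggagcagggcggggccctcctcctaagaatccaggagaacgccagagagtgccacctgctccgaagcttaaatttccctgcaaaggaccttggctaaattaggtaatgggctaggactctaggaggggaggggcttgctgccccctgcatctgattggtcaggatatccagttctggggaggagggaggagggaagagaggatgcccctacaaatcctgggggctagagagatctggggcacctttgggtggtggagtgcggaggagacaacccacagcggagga
Stfa3: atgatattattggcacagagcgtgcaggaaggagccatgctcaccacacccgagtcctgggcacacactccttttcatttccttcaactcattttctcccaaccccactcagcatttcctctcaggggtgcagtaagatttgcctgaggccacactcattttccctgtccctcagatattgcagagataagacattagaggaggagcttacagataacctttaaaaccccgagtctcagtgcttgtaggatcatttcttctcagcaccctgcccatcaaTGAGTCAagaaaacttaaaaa
Cyp2c55: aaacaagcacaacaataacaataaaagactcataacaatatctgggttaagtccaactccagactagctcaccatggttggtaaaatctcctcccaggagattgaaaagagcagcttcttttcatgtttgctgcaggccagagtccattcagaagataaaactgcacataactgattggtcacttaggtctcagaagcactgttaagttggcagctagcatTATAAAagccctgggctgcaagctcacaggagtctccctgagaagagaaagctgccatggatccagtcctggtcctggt
Guca2a: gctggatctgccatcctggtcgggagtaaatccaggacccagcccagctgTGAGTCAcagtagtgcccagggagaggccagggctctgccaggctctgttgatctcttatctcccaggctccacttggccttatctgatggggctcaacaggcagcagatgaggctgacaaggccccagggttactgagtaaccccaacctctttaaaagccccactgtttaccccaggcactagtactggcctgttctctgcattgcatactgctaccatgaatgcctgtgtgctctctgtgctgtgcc
The Fam25c and Cyp2c55 windows both have TATAAA starting 29 bases before the start, and TGANTCA, the AP-1 motif, begins 105 bases before the start of Fam25c, 200 bases before that of Guca2a and 29 bases after that of Stfa3. The Tnnc2 window has none of the motifs searched, which says only that these letters are not there. Over all 9755 tested genes with a promoter in the table, both strands read, TATAAA was found in 7.93%, against 19.7% of the 583 promoters of genes called higher by 2 or more on the log2 scale and 17.8% of the 342 promoters of genes called lower by as much. Those size limits held for 826 tested genes (6.28%) and 486 (3.69%), of which not all had a promoter in the table. TGANTCA was found in 5.58% of all, 13.7% of the higher and 8.77% of the lower. TTTATG, a CDX motif, was in 6.57%, 11.2% and 10.5%, and CAAAGTCCA, an HNF4 motif, in 0.390%, 0.515% and 1.46%. AACCNGTT (GRHL) was in 1.84%, 1.89% and 0.877%, and the p53 family motif, a paired sequence, in 0.308%, 0.858% and 0.292%. The motif matches were not tested and are no sites of binding.

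The keratins of stratified epithelium were higher in the anus and most simple keratins lower. All 3 basal keratins, all 8 tested mucosal and wound keratins and all 4 tested epidermal suprabasal keratins were higher in the anus, with median differences of 7.38, 7.47 and 7.87. Of the 4 epidermal suprabasal keratins, 2 had no rectal section at 1 TPM, which fixes their direction. Of 6 simple keratins, the intermediate filaments of single-layered epithelium, 4 were lower and 2 higher. As a share of the keratin TPM of these classes and of hair follicle keratins, simple keratins made up 98.4% to 99.8% in the rectum and 8.75% to 21.8% in the anus.

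Krt5 (chr15:101707070-101712898, minus strand, mm10), the type II keratin of basal cells, stood at 454, 1091, 1145 and 1088 TPM in the anus of mice 1 to 4 and 9.01, 3.29, 9.44 and 0.613 TPM in the rectum, a log2 difference of 7.42 ± 0.52 (SE, adjusted p = 1.1e-05). The groups did not overlap, and anal mouse 1 was lower than the other 3. Krt13 (chr11:100117327-100121566, minus strand), a keratin of the upper layers of wet mucosa, was at 8919, 4279, 4756 and 3203 TPM in the anus against 45.0, 17.9, 34.2 and 2.76 TPM in the rectum, a difference of 8.06 ± 0.37 (SE, adjusted p = 9.3e-07). Here anal mouse 1 was the highest, the reverse of its place for Krt5. Krt1 (chr15:101845426-101850794, minus strand), a keratin of cornifying skin, was at 1758, 1144, 1139.7 and 795 TPM and 14.3, 0.861, 1.16 and 0.147 TPM, a difference of 8.65 ± 0.39 (SE, adjusted p = 8.3e-07). Krt4, Krt17 and Krt10 differed by 7.82, 7.93 and 7.98, and Krt14, Krt15 and Krt77 by 7.06, 7.38 and 7.76. Mucosal keratins made up 65.7% of the keratin TPM in the anus of mouse 1 and 37.4% in that of mouse 4.

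The simple keratins divided. Krt20 (chr11:99428403-99438150, minus strand), a keratin of differentiated colonocytes, was at 115, 124, 103 and 174 TPM in the anus and 721, 647, 709.5 and 585 TPM in the rectum, a difference of -2.38 ± 0.19 (SE, adjusted p = 2.6e-05). Krt8, Krt18 and Krt19 were lower too, at -2.42, -2.61 and -1.91, and anal mouse 4 was the highest of the 4 anal sections for each of these 4 genes. Krt7 (chr15:101411043-101430313, plus strand) ran the other way, at 326, 186, 213 and 224 TPM in the anus against 72.7, 86.2, 94.5 and 59.5 TPM in the rectum, a difference of 1.58 ± 0.21 (SE, adjusted p = 0.00038). Krt23 was at 109 to 244 TPM and 3.62 to 5.47 TPM, a difference of 4.71. No sample of one section reached the other for any of the 6.

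Hair follicle keratins were listed at high levels in 3 of the 4 anal sections. Krt71, a keratin of the inner root sheath, was at 0.0392, 85.4, 277 and 203 TPM in anal mice 1 to 4 and at 0 in all 4 rectal sections, and Krt25 and Krt27 likewise ran from 0 to 197 and 0.325 to 149.6 TPM with the lowest value in mouse 1. With mouse 1 under 1 TPM for most of them, only 2 of the 16 listed genes, Krt75 and Krt79, entered the fit, and 16 entered without mouse 1; since no rectal section held 1 TPM of either, their direction was fixed by the filter, and the values are a description.

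**Figure D2:**
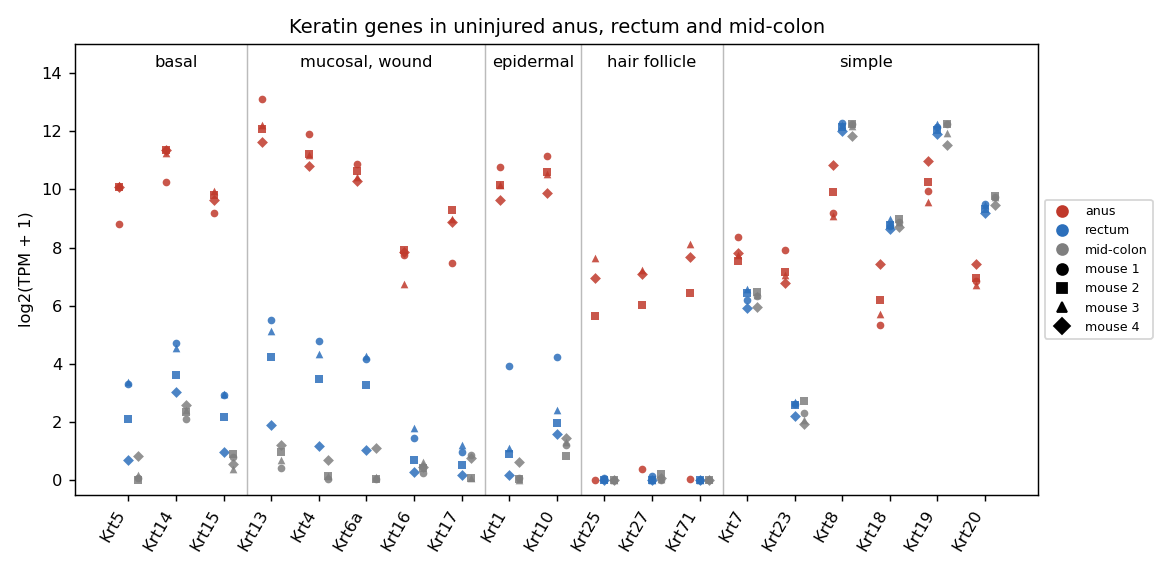
Keratin genes on the horizontal axis, grouped by class, and log2(TPM + 1) on the vertical axis, with 1 point per section (colour: anus, rectum or mid-colon) and mouse (shape). Basal, mucosal and epidermal keratins are high in all 4 anal sections, hair follicle keratins in mice 2 to 4 only, and among simple keratins Krt7 and Krt23 are higher in the anus while Krt8, Krt18, Krt19 and Krt20 are lower.

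The keratin genes sit in 2 clusters, and the opposite directions occurred inside each. On chromosome 11, 9 of the 11 tested type I keratin genes between 99232761 and 100269871 were higher in the anus and the other 2, Krt19 and Krt20, were lower. On chromosome 15, 13 of the 15 tested genes between 101347444 and 102032027 were higher and the other 2, Krt8 and the type I gene Krt18, were lower.

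Genes of the cornified envelope were nearly all higher in the anus: 29 of 30 tested members (11 of them with no rectal section at 1 TPM), with a median difference of 6.72. Krtdap, a keratinocyte differentiation-associated protein, was at 21364, 14596, 10267 and 7324 TPM in the anus and 82.7, 16.0, 16.8 and 6.29 TPM in the rectum, a difference of 9.22 ± 0.30 (SE, adjusted p = 1.4e-07). Dmkn and Sbsn, which share its locus, differed by 9.17 and 8.52. The mice kept one order in the anus for Krtdap and Dmkn, with mouse 1 highest and mouse 4 lowest. By the same rule, the largest difference was that of Fam25c, at 3724, 2758, 1722 and 1232 TPM against 5.74, 1.11, 1.25 and 0.949 TPM, or 9.59 ± 0.22 (SE, adjusted p = 6.5e-08). Stfa3, a stefin-type protease inhibitor of a family with near-identical copies, was at 2747, 1318, 847 and 852 TPM against 5.55, 0, 0.604 and 0 TPM, or 9.46 ± 0.26 (SE, adjusted p = 7.3e-08), and Lgals7 and Calm4, keratinocyte proteins, differed by 9.20 and 9.05. The exception was Tgm3, a transglutaminase that cross-links envelope proteins in skin, which was lower in the anus at 76.2, 102, 72.6 and 216 TPM against 609.8, 556, 636 and 529 TPM, a difference of -2.46 ± 0.28 (SE, adjusted p = 0.00019). Tgm1, its relative in squamous cells, was higher by 5.68.

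Many envelope genes lie side by side in the epidermal differentiation complex. Between S100a9 and S100a10 on chromosome 3 (90692632 to 93564643), 56 of 84 genes were tested, 50 were higher in the anus, 5 were lower and S100a10 did not pass. Loricrin (Lor), involucrin (Ivl) and filaggrin (Flg), structural proteins of the cornified layer, differed by 8.48, 5.90 and 7.92. The 5 lower genes were Gm4202 and 4 members of the small proline-rich family, Sprr2a1, Sprr2a2, Sprr2a3 and Sprr2b. Sprr2a2 was at 10250.2, 8338, 5635 and 10897 TPM in the anus and 38768, 38527, 34651 and 33122 TPM in the rectum, a difference of -2.09 ± 0.20 (SE, adjusted p = 7.5e-05). Its neighbours Sprr3 and Sprr1a were higher in the anus, by 8.22 and 7.80, as were Sprr2d (6.98) and Sprr2h (4.60). The Sprr2a gene models overlap and their sequences are near-identical, so the split of signal among them is uncertain. The Sprr2 genes were picked after their values were seen.

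Desmosomes bind cells of stratified epithelium together, and tight junctions seal simple epithelium. Of 13 desmosome genes 8 were higher, 5 of them with no rectal section at 1 TPM, and 2 lower, and of 17 tight junction genes 2 were higher and 15 lower. Among desmosomal cadherins, Dsg1a, Dsc3 and Dsc1 differed by 4.75, 4.96 and 4.22, while Dsg2, the desmoglein of simple epithelium, was at 20.3, 26.9, 25.5 and 85.9 TPM in the anus and 205, 199, 213 and 182 TPM in the rectum, a difference of -2.55 ± 0.33 (SE, adjusted p = 0.00034). The plaque protein Pkp2 was also lower, at -1.82. Dsp, Jup and Dsc2 did not pass, with differences of 0.36, 0.30 and 0.24.

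Among tight junction genes the claudins differed in direction. Cldn1, needed for the water barrier of skin, was at 34.7, 36.8, 42.0 and 36.1 TPM in the anus and 1.53, 2.20, 1.97 and 2.77 TPM in the rectum, a difference of 3.63 ± 0.19 (SE, adjusted p = 2.1e-06). Cldn4 was higher by 1.01. Cldn8, a sealing claudin of the distal colon, was at 6.25, 6.09, 6.55 and 21.2 TPM and 72.0, 58.9, 57.4 and 58.2 TPM, a difference of -2.69 ± 0.30 (SE, adjusted p = 0.00017), and Cldn2, a pore-forming claudin, differed by -2.49.

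Hemidesmosome and basement membrane anchors were mostly lower in the anus, 8 of 13 against 3 higher, with a median of -0.89. Over all genes tested, 31.3% were lower and 24.4% higher. Of the 3 higher, 2 had no rectal section at 1 TPM, Col17a1 among them, which fixes their direction. Those higher were Col17a1, a transmembrane collagen of basal cells (24.0 to 61.9 TPM against 0.0896 to 0.754 TPM, 5.06 ± 0.30, SE, adjusted p = 3.9e-06), Lama5 (2.12) and the anchoring fibril collagen Col7a1 (2.01). Itgb4, the integrin subunit of hemidesmosomes, was at 11.1, 17.7, 14.8 and 36.1 TPM in the anus and 82.6, 61.4, 58.7 and 47.8 TPM in the rectum, a difference of -1.71 ± 0.33 (SE, adjusted p = 0.0027). Dst, which encodes plakins of several cell types, did not pass as a gene, at 14.9, 39.0, 47.5 and 47.3 TPM and 36.5, 32.7, 30.8 and 32.6 TPM (0.04 ± 0.30, SE, adjusted p = 0.93). Its transcripts were looked at after the values were seen and were not tested: Dst-213, with a start at position 34160330 of chromosome 1, averaged 22.6 ± 10.2 TPM (SD, n = 4) in the anus and 0.956 ± 0.0976 TPM in the rectum, Dst-215, with the same start, averaged 0.910 ± 1.12 TPM and 6.33 ± 0.646 TPM, and Dst-204, with a start at 34257836, averaged 5.84 ± 3.04 TPM and 13.0 ± 0.575 TPM.

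Transcription factors of squamous and skin fate were mostly higher in the anus, 17 of 23 tested, with 5 lower, and those of intestinal fate mostly lower, 20 of 23 tested, with 2 higher. Of the 17, 11 had no rectal section at 1 TPM, and with a filter at 5 TPM 11 of the first list were called higher. The list medians were 2.08 and -1.91. Trp63 (chr16:25683763-25892102, plus strand), the p63 factor of basal stratified cells, was at 18.1, 21.5, 28.8 and 20.5 TPM in the anus and 0.313, 0.0748, 0.0630 and 0 TPM in the rectum, a difference of 4.37 ± 0.22 (SE, adjusted p = 1.4e-06). Between 98.6% and 100% of its anal TPM was assigned to the 4 transcripts that start at position 25801916, inside the gene, a choice of view made after the values were seen. The upstream starts, at 25683763 and 25683765, had under 0.5 TPM in each anal section. Sox2, a factor of foregut and stratified epithelium, was at 4.33, 2.14, 4.21 and 3.00 TPM and 0, 0.133, 0.0641 and 0 TPM, a difference of 2.04 ± 0.21 (SE, adjusted p = 9.9e-05). No rectal section held 1 TPM of Trp63 or Sox2, so the filter fixed their direction and the values are a description. Grhl1 and Grhl3, grainyhead-like factors of epidermal barrier genes, differed by 4.55 and 4.15.

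The 5 factors of that list that were lower in the anus were Ovol2, Klf5, Klf4, Elf3 and Ehf, at -1.88, -1.72, -1.33, -1.28 and -0.81. Klf4, which acts in skin barrier and in colonic goblet cells, was at 116, 103, 101 and 135 TPM in the anus and 321, 275, 305 and 247 TPM in the rectum. Grhl2 did not pass, at -0.42.

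Foxa3, a forkhead factor of gut epithelium, differed by -2.56. Hnf4a (chr2:163506808-163572910, plus strand), a nuclear receptor of enterocyte genes, was at 25.4, 33.6, 23.5 and 77.0 TPM in the anus and 247, 211, 231 and 196 TPM in the rectum, a difference of -2.61 ± 0.30 (SE, adjusted p = 0.0002). Cdx1, a caudal homeobox factor, was at 14.0, 17.8, 11.8 and 41.3 TPM and 133, 98.8, 125 and 94.4 TPM, a difference of -2.51 ± 0.33 (SE, adjusted p = 0.00035). Its relative Cdx2, the intestinal selector, was listed at 0, 0, 0.0235 and 0.0252 TPM in the anus and 4.54, 2.24, 3.42 and 3.73 TPM in the rectum, a difference of -2.12 ± 0.19 (SE, adjusted p = 5.1e-05), and so was at or near 0 in all 4 anal sections in which Cdx1 and Hnf4a were measured. No anal section held 1 TPM of Cdx2, so the filter fixed its direction and the values are a description. The 2 genes of this list that were higher in the anus were Pou2f3, a tuft cell factor also expressed in epidermis (2.91), and Prdm1 (1.57).

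Hox genes, which pattern the body axis, went both ways. Of 19 tested, 5 were higher in the anus and 11 lower, beside 24.4% and 31.3% of all genes tested. All 3 tested members of the group 13 paralogs, the most posterior, were lower: Hoxb13 was at 36.5, 40.6, 23.8 and 83.7 TPM in the anus and 216, 178, 203 and 169 TPM in the rectum (-2.17 ± 0.29, SE, adjusted p = 0.00043), and Hoxa13 and Hoxd13 differed by -1.96 and -1.77. In paralog groups 10 to 13, 7 of 9 tested genes were lower and 1 higher; in groups 1 to 9, 4 of 10 were lower and 4 higher. The higher genes were Hoxc10, Hoxc8, Hoxd8, Hoxc4 and Hoxb7, 3 of which, the HoxC genes, had no rectal section at 1 TPM and so could only be higher; with a filter at 5 TPM, 0 Hox genes were called higher and 8 lower. Differences between clusters or paralog groups were not tested. Hoxc10 was at 1.24, 1.88, 8.31 and 3.04 TPM in the anus and listed at 0 in all 4 rectal sections and Hoxc8 at 2.33, 2.37, 2.65 and 1.81 TPM against 0.0312, 0, 0 and 0 TPM, with differences of 1.98 and 1.70. Of the HoxC genes under the filter, viewed after the values were seen, Hoxc13 was at 0.0342, 0.689, 2.71 and 2.01 TPM and Hoxc6 at 0.641, 3.51, 3.82 and 1.13 TPM in the anus, and both were listed at 0 in the rectum. HoxC gene models overlap, so the split of signal among neighbours is uncertain.

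**Figure D3:**
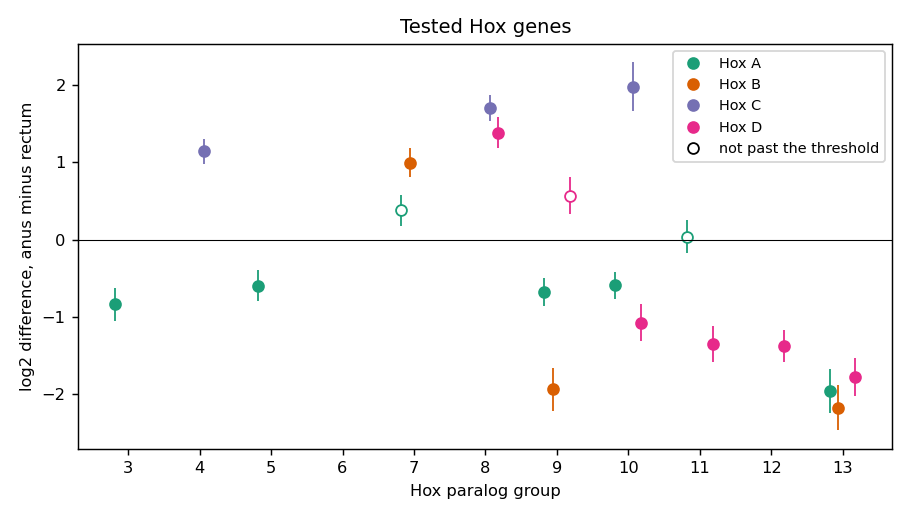
Tested Hox genes by paralog group on the horizontal axis and log2 difference, anus minus rectum, on the vertical axis; colours mark the cluster, bars are the standard error of the fit and open points did not pass the threshold. Group 13 genes lie between -2.17 and -1.77, and the 3 HoxC genes, which passed the filter through the anus only, lie between 1.14 and 1.98.

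Secreted signals went both ways. Of 30 tested ligands of the Wnt, R-spondin, Hedgehog, BMP, Notch, EGF, FGF and PDGF families, 18 were higher in the anus, 8 of them with no rectal section at 1 TPM, and 6 were lower. Over all genes tested, 24.4% were higher and 31.3% lower. With a filter at 5 TPM, 7 of the ligands were higher and 4 lower. Wnt4 was at 34.7, 32.9, 31.2 and 30.5 TPM in the anus and 1.35, 0.954, 1.07 and 0.940 TPM in the rectum, a difference of 4.00 ± 0.18 (SE, adjusted p = 8.5e-07), with the 4 anal values close together. Wnt7b and Wnt10a differed by 3.81 and 2.69. The lower ligands included Ihh, the Hedgehog ligand of colonocytes, at 2.92, 5.26, 2.79 and 11.2 TPM and 27.8, 20.1, 29.1 and 22.9 TPM (-2.15 ± 0.34, SE, adjusted p = 0.00089), and Bmp3, Bmp2, Bmp5, Pdgfa and Dll4, at -2.67, -1.80, -1.34, -1.18 and -0.74. The call of Dll4 was lost without mouse 1, 2 or 3 (adjusted p = 0.085, 0.086 and 0.053). Shh was listed at no more than 0.172 TPM in any of the 8 sections and was not tested.

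Crypt stem cell and Wnt target genes went both ways, 6 of 13 higher and 3 lower, beside 24.4% and 31.3% of all genes tested. Of the 6 higher, 2 had no rectal section at 1 TPM, which fixes their direction. Tnfrsf19, Smoc2 and Cd44 were higher by 2.66, 2.24 and 2.13. Lgr5, the receptor that marks crypt stem cells and also hair follicle stem cells, was at 0.394, 0.713, 2.47 and 3.19 TPM in the anus and 0.507, 0.511, 0.490 and 0.636 TPM in the rectum and was not tested. Myb, Sox9 and Rnf43 were lower, with differences of -2.27, -1.02 and -0.98; without mouse 1 or 2 only 1 gene of the list was called lower, with Sox9 at adjusted p = 0.094 and 0.079 and Rnf43 at 0.058 and 0.064.

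Of 15 cell cycle genes, 5 were lower in the anus, none was higher, and 10 did not pass, a share of lower genes close to the 31.3% of all genes tested. The members that did not pass had differences between -0.47 (Birc5) and 0.45 (Mcm2). Mki67, the Ki67 antigen of dividing cells, was at 4.14, 6.26, 7.15 and 12.7 TPM in the anus and 16.3, 14.9, 16.1 and 14.1 TPM in the rectum, a difference of -1.02 ± 0.26 (SE, adjusted p = 0.011). Plk1, Ccna2 and Aurka differed by -1.36, -1.02 and -0.62, and Ccnb2 was lower too. Mcm2, a replication helicase subunit, had 2.31 to 6.85 TPM and 2.68 to 4.19 TPM, a difference of 0.45 ± 0.23 (SE, adjusted p = 0.12), and with TMM factors, which rescale each sample, it was called higher (adjusted p = 0.028). Without mouse 1, 1 gene of the list was called higher. Pcna had a difference of 0.08 and Top2a of -0.12, neither past the threshold.

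Genes of the colonocyte brush border, the absorptive surface, were lower in the anus. Of 20 brush border genes 19 were lower and none higher, with a median of -2.36, and Mall did not pass (0.20). Guca2a, the precursor of the fluid-regulating peptide guanylin, was at 35.0, 53.3, 28.1 and 122 TPM in the anus and 1149.7, 794, 922 and 1279 TPM in the rectum, a difference of -4.31 ± 0.28 (SE, adjusted p = 6.9e-06). Cdh17 and Ceacam20, adhesion molecules of enterocytes, differed by -2.77 and -2.71. Cyp2c55, a colonic cytochrome, was lower too, at 15.8, 28.7, 41.6 and 84.3 TPM against 706, 709, 1186 and 649 TPM (-4.43 ± 0.34, SE, adjusted p = 2.1e-05). The vitamin D responsive calcium-binding protein S100g, Nxpe4, Nxpe2, the drug pump Abcb1a and the kallikrein Klk1 were lower, with differences of -3.98, -3.81, -3.72, -3.65 and -3.71.

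Genes of salt and water transport were mostly lower. Of 31 tested, 26 were lower in the anus and 4 higher. Slc9a2, an apical sodium-hydrogen exchanger, was at 1.92, 4.49, 3.60 and 12.8 TPM in the anus and 105, 94.5, 98.1 and 88.8 TPM in the rectum, a difference of -4.11 ± 0.35 (SE, adjusted p = 3.7e-05). The carbonic anhydrases Car4 and Car1 differed by -3.67 and -3.34, the chloride-bicarbonate exchanger Slc26a3 by -3.34 and the water channel Aqp8 by -3.31. The aquaglyceroporin Aqp3, the main water and glycerol channel of epidermis, ran the other way, at 90.2, 96.8, 105 and 93.7 TPM against 1.20, 0.840, 1.89 and 0.503 TPM, a difference of 5.57 ± 0.20 (SE, adjusted p = 2.3e-07). The other genes higher in the anus were Car12 (3.27), Aqp1 (0.88) and Prss8 (0.43), and Prss8 lost its call without mouse 1, 2 or 3 (adjusted p = 0.11, 0.19 and 0.12) and without mitochondrial and skeletal muscle genes in the TPM total (0.12).

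All 16 tested goblet cell genes were lower in the anus, with a median of -2.40. Zg16, a lectin of colonic mucus, led by size, at 132, 168, 158 and 503 TPM in the anus against 5923, 5099.6, 5252 and 6871 TPM in the rectum, a difference of -4.80 ± 0.26 (SE, adjusted p = 2.2e-06). Muc2 (chr7:141690340-141754693, plus strand), the gel-forming mucin of the colon, was at 24.3, 37.7, 40.3 and 154 TPM and 596, 510.4, 643 and 630.4 TPM, a difference of -3.57 ± 0.35 (SE, adjusted p = 8.5e-05), and Clca1, a mucus-processing protease, differed by -3.44. Anal mouse 4 stood apart from the other anal sections for Zg16 and Muc2 and still lay below every rectal one. Other mucins divided: Muc3, Muc3a, Muc13 and Muc1 were lower, with differences of -3.20, -2.65, -2.27 and -1.33, and Muc21 (listed under its older name Gm9573), Muc15, Muc20 and Muc4 were higher by 4.70, 2.84, 2.26 and 0.99. Of the 4 higher mucins, 3 had no rectal section at 1 TPM, which fixes their direction. The split between Muc3 and Muc3a is uncertain because of their likeness, and Muc1, whose groups overlapped, lost its call without mouse 1 or 3 (adjusted p = 0.094 and 0.062).

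Hormone genes of enteroendocrine cells were lower, 10 of 11 tested, led by Insl5 at 1.68, 10.5, 2.32 and 7.10 TPM in the anus and 56.5, 34.3, 47.5 and 63.6 TPM in the rectum (-3.23 ± 0.40, SE, adjusted p = 0.00028). Chgb and Pyy, a granin and the satiety peptide YY, differed by -2.76 and -2.60. The exception, Cpe, a peptide-processing enzyme also made elsewhere, was higher by 4.04. Of 7 tested tuft cell genes 6 were higher, but these were genes also used by other cells: Pou2f3, the eicosanoid enzymes Alox5 (1.69), Ptgs1 (1.62), Alox5ap and Ltc4s, and Dclk1. Trpm5, a channel that defines tuft cells, was at 0, 0, 0 and 0.0149 TPM in the anus and 0.420, 0.0866, 0.208 and 0.415 TPM in the rectum and was not tested.

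Fatty acid oxidation genes, which serve butyrate use in colonocytes, were mostly lower. Of 21 ketogenesis and fatty acid oxidation genes 13 were lower in the anus (8 without mouse 2) and 3 higher. Slc16a1, the transporter that takes up butyrate, was at 13.0, 21.8, 27.1 and 66.0 TPM and 170.4, 150.0, 171 and 163 TPM, a difference of -2.56 ± 0.32 (SE, adjusted p = 0.00029). Ppargc1a and Acsm3 differed by -2.36 and -2.01. Among the 3 higher genes, Acaa2 and Etfb differed by 0.70 and 0.51, with Etfb at adjusted p = 0.077 without mouse 2.

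Of 30 xenobiotic genes 10 were higher and 17 lower, beside 24.4% and 31.3% of all genes tested. Those higher included Gsta4 (4.07), a glutathione transferase, Cyp2b19 (3.90), a keratinocyte cytochrome, and Gsto1, at 6001, 3656, 3561 and 3056 TPM in the anus against 441, 427, 431 and 375 TPM in the rectum (3.23 ± 0.17, SE, adjusted p = 2.2e-06). Cyp2f2, Cyp4f39, Cyp4b1, Cyp2e1, Cyp2b10, Gsta1 and Ugt1a1 were also higher, by between 0.91 and 3.06.

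**Figure D4:**
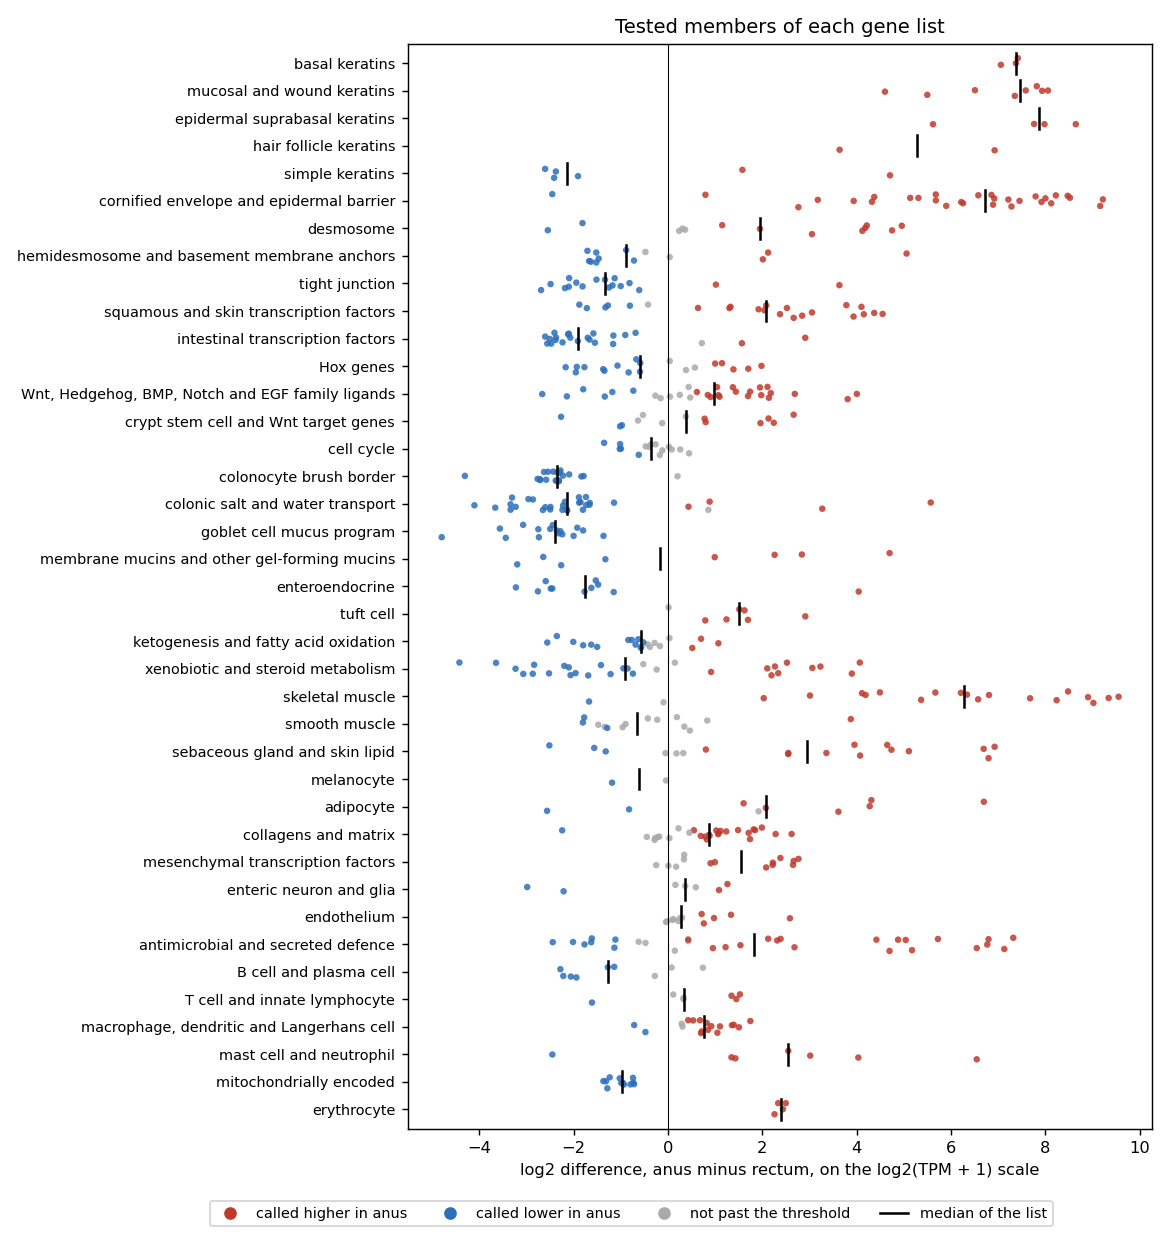
Log2 difference, anus minus rectum, on the horizontal axis for every tested member of the 39 gene lists on the vertical axis; red points were called higher in the anus, blue lower and grey neither, and a black bar is the list median. Medians run from 7.87 for epidermal suprabasal keratins to -2.40 for the goblet cell program, and the median of all tested genes is -0.15.

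Skeletal muscle genes were among the largest differences, although the muscle layer was discarded per the series' design text. Of 20 tested, 18 were higher in the anus, 7 of them with no rectal section at 1 TPM, with a median of 6.28. Tnnc2, the calcium sensor of fast muscle, was at 258, 732, 3311 and 1509 TPM in the anus and 1.96, 0, 0 and 0 TPM in the rectum, a difference of 9.56 ± 0.69 (SE, adjusted p = 1.4e-05). Anal mouse 1 was lowest and mouse 3 highest, more than 10-fold apart. Mouse 1 was also lowest and mouse 3 highest for Tnnt3 and Mylpf, which differed from the rectum by 9.34 and 9.02. The myosin light chains Myl1 and Myl3 differed by 8.91 and 8.83. Tnni1, the slow-muscle troponin I, was lower in the anus, at 54.5, 39.7, 37.3 and 60.4 TPM and 146, 143, 185 and 139 TPM (-1.68 ± 0.20, SE, adjusted p = 0.00024).

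Smooth muscle genes mostly did not pass: of 14 tested, 3 were lower in the anus (Hhip -1.81, Actg2 -1.78, Tagln -1.29), Ldb3, which striated muscle also uses, was higher (3.88), and 10 did not pass. Myh11, the smooth muscle myosin, was at 1.76, 54.9, 51.2 and 10.9 TPM in the anus and 39.8, 46.7, 51.0 and 38.2 TPM in the rectum (-1.34 ± 0.59, SE, adjusted p = 0.082), with anal mice 1 and 4 below the rectal range and mouse 2 above it. Des, Acta2 and Cnn1 had differences of 0.83, -0.90 and -1.48, and Lmod1, Smtn, Synm, Synpo2, Mylk and Casq2 of between -0.96 and 0.46. Without mouse 2 or without mouse 3, 7 genes of the list were called lower, and without mouse 1, 3 were called higher. Without mouse 4, Actg2 was at adjusted p = 0.054.

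Genes of skin appendages and fat were found in the anus at levels that differed among mice. Of 18 sebaceous gland and skin lipid genes 12 were higher in the anus, 9 of them with no rectal section at 1 TPM, and 3 lower (Soat1 -2.52, Plin2 -1.57, Pparg -1.32). Elovl3, a fatty acid elongase of sebaceous glands, was at 7.70, 31.1, 67.0 and 25.7 TPM in the anus and listed at 0 in every rectal section, a difference of 4.74 ± 0.41 (SE, adjusted p = 4.1e-05), and Elovl4 and Krt79 differed by 6.69 and 6.93. The defensin Defb6 was at 70.6 to 167 TPM and likewise listed at 0 in the rectum (6.80). With no rectal section at 1 TPM, the filter fixed the direction of Elovl3 and Defb6.

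Of 9 adipocyte genes 6 were higher and 2 lower (Pck1 -2.57, Pnpla2 -0.83), with Pnpla2 at adjusted p = 0.055 with no filter. Of the 6 higher, 3 had no rectal section at 1 TPM. Adipoq, the adipocyte hormone adiponectin, was at 2.01, 18.0, 121 and 19.2 TPM in the anus and at 0 in every rectal section (4.28 ± 0.68, SE, adjusted p = 0.00094), with mouse 3 far above the rest. The direction of Adipoq was thus fixed by the filter. Cfd and Fabp4 differed by 6.70 and 4.31. Without mouse 1, 10 genes of the list were called higher. Of the melanocyte list only 2 genes were tested, Pmel (-0.04, not past the threshold) and Kit, which was lower (-1.19); its markers Dct, Tyrp1 and Pmel summed to 1.08 to 5.96 TPM in the anus and 1.34 to 1.70 TPM in the rectum.

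Connective tissue genes were mostly higher in the anus, 19 of 28 collagen and matrix genes against 1 lower. Dcn, the proteoglycan decorin, was at 1088, 939, 1212 and 1052 TPM in the anus and 191, 228, 243 and 217 TPM in the rectum, a difference of 2.28 ± 0.15 (SE, adjusted p = 6.5e-06). Mfap4, of elastic fibres, differed by 2.62, and Col1a1, at 34.8, 56.6, 118 and 139 TPM against 23.1, 22.2, 25.9 and 19.0 TPM, by 1.71 ± 0.33 (SE, adjusted p = 0.0025). Thbs4 alone was lower, at -2.25. Mesenchymal transcription factors included 9 of 14 that were higher, 5 of them with no rectal section at 1 TPM, and none lower. Tbx15, a factor of dermal and limb mesenchyme, was at 1.43, 3.77, 18.7 and 10.1 TPM and 0, 0.0503, 0.0978 and 0.0165 TPM (2.77 ± 0.42, SE, adjusted p = 0.00077), and Pitx1 and Twist1 differed by 2.66 and 2.65. No rectal section held 1 TPM of Tbx15, which fixes its direction. The gut mesenchyme factors Foxf1 and Nkx2-3 did not pass, at 0.01 and -0.25.

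Of 7 tested enteric neuron and glia genes 2 were higher (Stmn2 1.26, Tubb3 1.08) and 2 lower. Over all genes tested, 24.4% were higher and 31.3% lower. Of the 2 higher, 1 had no rectal section at 1 TPM. Vip, the gut neuropeptide, was lower, listed at 0 in all 4 anal sections and at 7.26, 5.75, 10.1 and 5.40 TPM in the rectum (-2.99 ± 0.20, SE, adjusted p = 9.7e-06). With no anal section at 1 TPM, the direction of Vip was fixed by the filter. Pmp22, which epithelium also makes, was lower too, at -2.22. Gfra1, Uchl1 and Mbp did not pass (0.59, 0.36 and 0.15). Of 12 endothelial genes 5 were higher, led by Rgcc (2.58) and Cldn5 (1.33) with Emcn at 0.97, and the other 7, Pecam1 and Cdh5 among them, had differences between -0.04 and 0.30 and did not pass. All 4 tested globin genes were higher, Hbb-bt by 2.50, Hba-a1 by 2.44 and Hba-a2 by 2.34, and all 12 tested mitochondrially encoded genes were lower, with a median of -0.97, led by mt-Nd4l (-1.37), mt-Co1 (-1.32) and mt-Nd5 (-1.29). With no filter 3 of them were called lower, mt-Nd4l not among them (adjusted p = 0.054), and without mouse 2, 8 were. Mitochondrial transcripts made up 6.26% to 12.3% of TPM in the anus and 16.3% to 20.0% in the rectum.

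Defence genes went both ways. Of 30 antimicrobial and secreted defence genes 19 were higher in the anus, 8 of them with no rectal section at 1 TPM, and 7 lower. Over all genes tested, 24.4% were higher and 31.3% lower. S100a8, a subunit of calprotectin, was at 524, 209, 176 and 129.9 TPM in the anus and 0, 1.27, 0.715 and 0 TPM in the rectum, a difference of 7.32 ± 0.38 (SE, adjusted p = 2e-06), and its partner S100a9 differed by 7.13. Neutrophils carry both proteins as well, and the neutrophil markers Csf3r, Cxcr2 and Mpo summed to 3.13, 1.75, 1.88 and 1.25 TPM in anal mice 1 to 4 and 0.282 to 0.550 TPM in the rectum, higher in every anal section and highest in mouse 1, as S100a8 was. Mouse 1 was also the highest anal section for 16 of the 30 tested defence genes and 23 of the 30 tested envelope genes. Ly6g, of the mast cell and neutrophil list, was lower in the anus (-2.45), but its rectal values, given below, were far above the summed neutrophil markers there. Whether Ly6g follows neutrophils in these sections was not tested. The part of neutrophils in the S100a8 and S100a9 values was not tested. Defb4, a beta-defensin, and lactoferrin (Ltf) differed by 6.77 and 6.55, and Il1f6, the older name of interleukin 36 alpha, was at 103, 27.1, 32.2 and 16.5 TPM in the anus and listed at 0 in every rectal section (5.17 ± 0.37, SE, adjusted p = 1.4e-05). The filter therefore fixed the direction of Il1f6. Those lower were Reg4, Dmbt1, Pglyrp1, Saa1, Wfdc2, Il18 and Il1rn, with differences between -2.45 and -1.12.

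Of 18 macrophage, dendritic and Langerhans cell genes 14 were higher in the anus and 2 lower, and without mouse 1, 9 were higher and none lower. H2-Ab1, a class II antigen-presenting chain, was at 224, 229, 221 and 222 TPM in the anus and 78.2, 62.5, 72.1 and 107 TPM in the rectum (1.50 ± 0.17, SE, adjusted p = 0.00017), and Mgl2 and Cd74 differed by 1.74 and 1.39. The lower genes Cx3cr1 (-0.48) and Cd14 (-0.72) lost their calls without mouse 1, 2 or 3, with adjusted p from 0.063 to 0.18, and Cx3cr1 also without mouse 4 (0.070). Of 7 mast cell and neutrophil genes 6 were higher, 4 of them with no rectal section at 1 TPM, with the mast cell proteases Mcpt4 at 14.8, 11.9, 20.4 and 35.3 TPM against 0.0708, 0.178, 0.501 and 0.152 TPM (4.04 ± 0.27, SE, adjusted p = 8.3e-06) and Cpa3 at 3.02. No rectal section held 1 TPM of Mcpt4, so the filter fixed its direction. Ly6g, at 77.8 to 178 TPM in the anus and 602 to 736 TPM in the rectum, was lower (-2.45).

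B and plasma cell genes were lower or did not pass, 6 of 9 lower. Igha, the immunoglobulin A heavy chain, was at 33.0, 27.6, 5.43 and 79.6 TPM in the anus and 265, 63.9, 122 and 132 TPM in the rectum, a difference of -2.28 ± 0.51 (SE, adjusted p = 0.0053), and its groups overlapped because anal mouse 4 exceeded rectal mouse 2. Jchain and Igkc differed by -2.06 and -2.22. Of 7 T cell and innate lymphocyte genes 3 were higher and 1 lower, beside 24.4% and 31.3% of all genes tested. With a filter at 5 TPM 0 of these genes were higher and 1 lower. Cd3g, Nkg7 and Tcrg-C1 were the higher genes, at 1.52, 1.45 and 1.35, while Cd2, Klrd1 and Ccl5 did not pass (0.33, 0.33 and 0.11).

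The direction of the difference was then read in the 15 mice of days 3, 6, 9, 14 and 20, which had been given 3% DSS for up to 6 days from day 0 and from which an anal and a rectal section were also sequenced. No test was made. Of the 7330 genes called at day 0, 4380 (59.8%) had the day 0 direction in all 15 mice, against 4754 of all 13158 tested genes (36.1%). All 3 mice of day 3, showed the day 0 direction for 93.8% of the called genes, and the share was lowest at day 9 (77.5%). All 15 called basal, mucosal and epidermal keratins, all 30 called envelope genes and 18 of the 19 called skeletal muscle genes (not Tnni1) had their day 0 direction in all 15 mice. None of the 5 called cell cycle genes did.

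The mean difference of Krt13 was 8.06 at day 0, 10.07 at day 6 and 6.98 at day 14, and that of Trp63 stayed between 3.93 and 5.25. Muc2 went from -3.57 at day 0 to -2.53 at day 3 and -8.57 at day 6, and was at -4.26 at day 20, and Zg16 went from -4.80 to -2.68 and -9.77. Mean Muc2 at days 0, 3 and 6 was 64.1, 152 and 2.65 TPM in the anus and 595, 849 and 1349 TPM in the rectum. Hoxb13 stood at -2.17 at day 0 and -5.65 at day 6. Krt7 was the exception among the keratins named here, with a mean of 1.58 at day 0, 0.05 at day 6 and 2.22 at day 20, and the day 0 direction in 12 of 15 later mice. H2-Ab1 and Cd74 had theirs in 7 of 15.

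**Figure D5:**
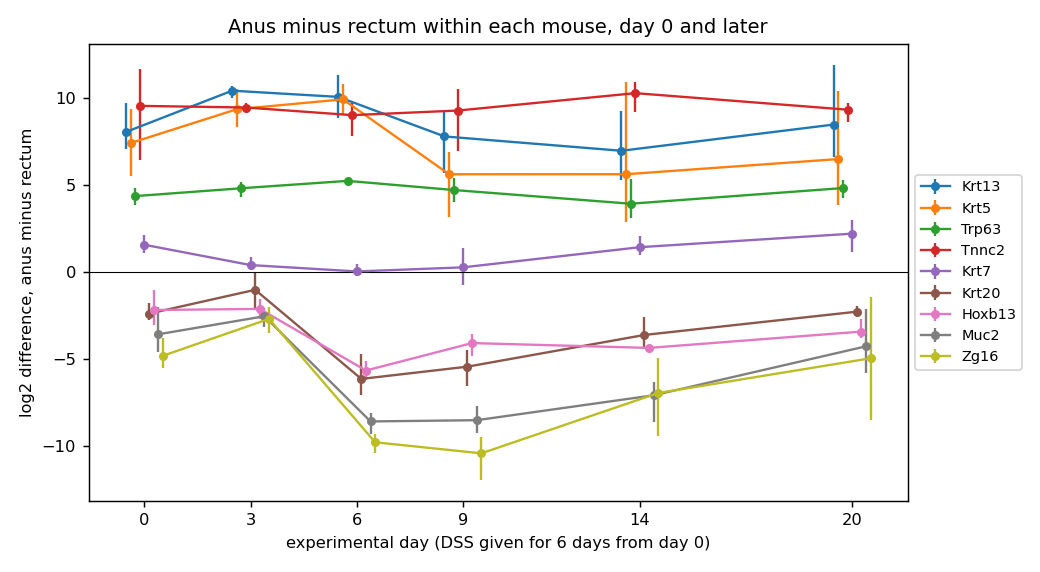
Log2 difference, anus minus rectum of the same mouse, on the vertical axis against experimental day on the horizontal axis, for 9 genes; points are means (4 mice at day 0, 3 at each later day) and bars run from the lowest to the highest mouse. Krt13, Krt5, Trp63 and Tnnc2 stay above 0 and Krt20, Hoxb13, Muc2 and Zg16 below 0 on every day, while Krt7 has means of 0.41, 0.05 and 0.28 at days 3, 6 and 9.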

How the data were processed

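The authors deposited 1 table of transcript abundances, in which each value column is a coverage-derived signal in TPM per transcript. Per the submitters' processing notes, the tools were CASAVA and kallisto and the build mm10; versions, transcript index and strand setting are not given in the sources used here. Of 126860 lines, 37344 had no values and 1318 repeated a transcript and were dropped, which left 88198 transcripts and columns of equal sums. TPM was summed per gene identifier to 30452 genes, of which 30123 matched a reference gene name; transcripts with no gene identifier held 0.627% to 2.83% of TPM at day 0. TPM keeps no depth, so the counting error behind a value is unknown, and an exact 0 is called listed at 0. Gene positions are from GENCODE M21.

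A gene was tested with at least 1 TPM in 4 of the 8 day 0 samples. log2(TPM + 1) was fitted with limma 3.58.1 in R 4.3.3 with a mean-variance trend and mouse as the block, p-values were adjusted by Benjamini-Hochberg over all 13158 genes, and genes were called at 0.05. The labels give a mouse identifier, so both sections of a number come from 1 animal. The deviations of both sections from their group means correlated over genes at 0.15, -0.004, 0.006 and 0.06 in mice 1 to 4. Anal and rectal libraries were assigned from the labels, which name no RNA batch or sequencing run. The fit was tested on simulated data. Alternatives were no block, a pseudocount of 0.1, no filter, a filter at 5 TPM, TMM factors, TPM without mitochondrial and skeletal muscle genes, a 2-fold minimum and leaving out each mouse. Only TPM of the mid-colon sections of the same 4 mice and of the anal and rectal sections of 15 later mice were read besides; the other samples were not used here.

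The comparison and its 39 gene lists (775 symbols found in the table, 567 tested) were chosen with earlier results of these data known. Named genes were, per list, the 3 called members with the largest difference, called members against the list's direction, and members that did not pass where 5 or fewer were called; the 12 largest differences in each direction among called genes with a mean of at least 8 TPM in the higher section, no overlap and a proper symbol; and 18 genes of prior interest. Other genes named (among them Itgb4, Dst, Dsp, Jup, Dsc2, Grhl2, Lor, Ivl, Flg, Tgm1, the Sprr genes, Hoxc6, Hoxc13, Trpm5, Car1, Slc26a3, Aqp8, Foxf1, Nkx2-3, Elovl3, Col1a1, Defb4, Il1f6 and the adjoining examples in their lists) were chosen after their values were seen, apart from the fixed markers. Some results that the rule would name are not reported here.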

Additional observations from a re-analysis of the deposited data

Results flagged for a closer look

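Within each group of 4 mice, 104 sets of values (the named genes and the marker sums, in anus and in rectum) were examined for a sample far from the other 3, and 18 had one. Chance alone gives about 1 in 20 such sets, and genes of 1 tissue are not independent of each other.

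In the rectum, mouse 1 was far above mice 2 to 4 for genes of squamous epithelium (Fam25c at 5.74 TPM, Stfa3 at 5.55 TPM, Krtdap at 82.7 TPM, Krt1 at 14.3 TPM) and of muscle (Tnnc2 at 1.96 TPM, Tnnt3 at 3.71 TPM, Mylpf at 9.02 TPM, Myl1 at 6.14 TPM), and for Hoxa13 (40.9 TPM). The squamous and muscle values of this section were small beside those of any anal section.

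In the anus, mouse 4 was far above the others for Zg16 (503 TPM), Car4 (495 TPM), Muc2 (154 TPM), Hoxd13 (36.4 TPM) and the summed goblet markers (1159 TPM), all of them genes higher in the rectum. Mouse 1 was far below the others for Krt5 (454 TPM), and mouse 3 was far above for the summed adipocyte markers (137 TPM).

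Rectal mouse 3 was far above the other rectal sections for Cyp2c55 (1186 TPM) and for S100g (599 TPM), 2 genes that were lower in the anus. Without mouse 3, both were still called lower.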

How the results depend on the processing

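Both sections of a mouse were paired as a block, and without the block 7936 genes were called (3413 higher and 4523 lower), of which 7226 were also called with it; that fit changed no count of a list by more than 1.5 times. For the genes of the largest differences and those of prior interest, 423 of 423 values under the alternatives kept their direction and their side of the threshold. The largest differences were picked from these same data, so their stability is no independent support. Some other named genes, such as Cd14, Dll4 and Sox9, lost their calls under some alternatives. Counts called higher and lower in a list stayed within 1.5 times in 799 of 858 comparisons. Leaving out 1 mouse gave 5462 to 7718 called genes, 2595 to 3504 higher and 2865 to 4718 lower. A filter at 5 TPM tested 9315 genes and called 2134 higher. Asking for a 2-fold difference left 4194 genes, 1996 higher and 2198 lower. No filter tested 21650 genes and called 7313. With TMM factors 8251 genes were called, and without mitochondrial and skeletal muscle genes 7462. List counts moved by leaving out a mouse beyond those given with their results were, for called higher, enteroendocrine genes (1 to 3) and enteric neuron genes (2 to 4) without mouse 1 and B and plasma cell genes (0 to 1) without mouse 4, and, for called lower, collagens (1 to 2) without mouse 4; the cause was not tested. The Hox genes called higher were 11 with no filter and 0 at 5 TPM. Depth is unknown from TPM, and 4 mice limit the precision.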

Other observations

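Some genes called at day 0 ran the other way in the later mice; they were picked after the values were seen, no test was made and no cause is given. Isg15, an interferon-induced ubiquitin-like protein, was higher in the uninjured anus by 1.90 on the log2 scale, but had that direction in 3 of 15 later mice, with a mean difference of -1.29. Tap1, a peptide transporter of antigen presentation, went from 1.20 to a later mean of -0.48 (5 of 15 mice), and Xaf1 and Ube2l6, also interferon-induced, from 0.77 and 0.85 to -0.82 and -0.82 (3 of 15 mice each). Wfdc18 went from 2.39 to -1.60 (3 of 15), Ly6c1 from 1.48 to -0.71 (5 of 15) and the regulatory RNase Zc3h12a from 0.67 to -0.84 (2 of 15). In the other direction, Mfap3l was lower in the uninjured anus by -0.52 and higher in all 15 later mice, with a mean of 1.73, and Kyat1 went from -0.83 to 1.25 (2 of 15).

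A set of 56 genes was listed at 0 in all 4 rectal sections with at least 1 TPM in every anal section, and 9 genes the reverse. Besides those named above the first set held Lce6a and Klk6, of the cornified layer, and Awat1, a wax synthase of sebaceous glands. The reverse set held Vip, immunoglobulin segments, a histone gene and unnamed or pseudogene models, among them Rps16-ps2, listed at 0 in the anus and at 71.4 to 386 TPM in the rectum, whose near-identical parent gene makes its value uncertain.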
